A study of Mus musculus with 12 samples.

Results

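The TGF-beta ligands, receptors and latent binders are described here across 4 populations of mouse liver cells sorted by the fluorescence of a Sox9EGFP transgene. The set was chosen by name and holds 10 genes of the 54227 in the deposited table: the ligands Tgfb1, Tgfb2 and Tgfb3, the receptors Tgfbr1, Tgfbr2 and Tgfbr3, and the latent binders Ltbp1, Ltbp2, Ltbp3 and Ltbp4. All 10 had a mean of at least 10 normalised counts over the 12 libraries and entered the test with 16128 genes in all. Tgfb1, Tgfbr2, Tgfbr3 and Ltbp4 were high in neg and sub and low in the low and high populations. Ltbp3 had its lowest values in neg and its highest mean in sub, and Tgfbr1 was lowest in sub. Neither of these, nor Tgfb2, Tgfb3, Ltbp1 or Ltbp2, passed the limma test in any comparison. DESeq2, and limma with a pseudocount of 5, called Ltbp3 in sub and in low against neg.

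TGF-beta is secreted as a latent complex in which the mature dimer stays bound to its own propeptide, and a latent TGF-beta binding protein can tether that complex to the extracellular matrix. Integrins and matrix proteins release the active ligand, which binds the type II receptor (Tgfbr2). The type II receptor then phosphorylates the type I receptor (Tgfbr1), and the type I receptor phosphorylates SMAD proteins. The type III receptor (Tgfbr3, betaglycan) presents ligand, TGF-beta2 above all, to the type II receptor. In the liver the pathway is best known for activating stellate cells and for scar formation around the bile ducts and sinusoids.

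All mice were C57Bl/6 and carried the Sox9EGFP transgene, also those that gave the neg cells, and all were fasted for 16 h. Livers were digested and 12000 cells per library were sorted into neg (no EGFP signal), sub (called sublow in the protocol, below low), low and high, with 3 libraries each. Libraries were made from total RNA with a stranded low-input kit. Age and sex are not given in the sources used here, and neither is the number of animals behind the 3 libraries, so the p-values measure the spread between these samples, which may be technical. Libraries with the same number in the 4 populations share a tag in their descriptions, and the labels do not say whether it names an animal. The gates follow transgene fluorescence and not a cell surface marker, so each population is a mixture of whatever cells fell in that gate.

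Depth ranged from 8775387 to 15535588 reads per library and the number of genes above 0 from 9039 to 12687. The mitochondrial ribosomal RNAs took 2.10% to 2.78% of the summed values in neg and 4.98% to 6.00% in the other 9 libraries, so any comparison with neg also compares these shares, whose part was not tested. Sox9, the gene behind the reporter, was listed at 0.691, 0 and 0 normalised counts in neg and lay between 3707 and 17140 in the other 9 libraries, so the labels matched the gene they report on. The summed level of 10 biliary markers was 22.2 to 412 in neg and 20453 to 36331 in sub, with 69565 to 95539 in low and 63111 to 70564 in high. The 10 endothelial markers summed to 140163 to 198007 in neg and 38395 to 51843 in sub, with 971 to 2617 in low and 631 to 1520 in high. Of these 10, all were above 0 in every neg library, 8 in every sub library, and 3 in every low and every high library. Emcn was at 0 in all libraries of both low and high, and Lyve1 in all of low. The 10 stellate markers summed to 8529 to 14667 in neg and 15382 to 21370 in sub, with 825 to 2177 in low and 530 to 1652 in high. Of the 10 stellate markers, 4 were above 0 in every low library and 3 in every high one, where neg had 8 and sub 7. Lrat, Colec11 and Lhx2 were at 0 in all libraries of both low and high, and Pdgfrb and Hand2 in all of high. Lhx2 was also at 0 in all of sub and in neg 2 and neg 3. Reln, Ngfr and Rgs5 stayed above 0 throughout, and Rgs5 had means of 845 in low and 573 in high, against 829 in neg. The log2 differences of low and of high from neg were below 0 for all 9 stellate markers tested. The 10 hepatocyte markers summed to 395 to 936 in neg and 6751 to 7806 in sub, with 14730 to 22230 in low and 19528 to 22723 in high, and their part in any result was not tested. Kupffer and macrophage markers summed to between 0 and 1526 in any library, and lymphocyte markers to between 10.97 and 1786.

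Zeros need care in these small-input libraries. Of the 120 values of the set, 13 were listed at 0: 2 in neg and 2 in sub, with 4 in low and 5 in high. Zeros also occurred among genes that every cell uses, since 5 of 15 housekeeping genes were at 0 in at least 1 library.

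**Figure D1:**
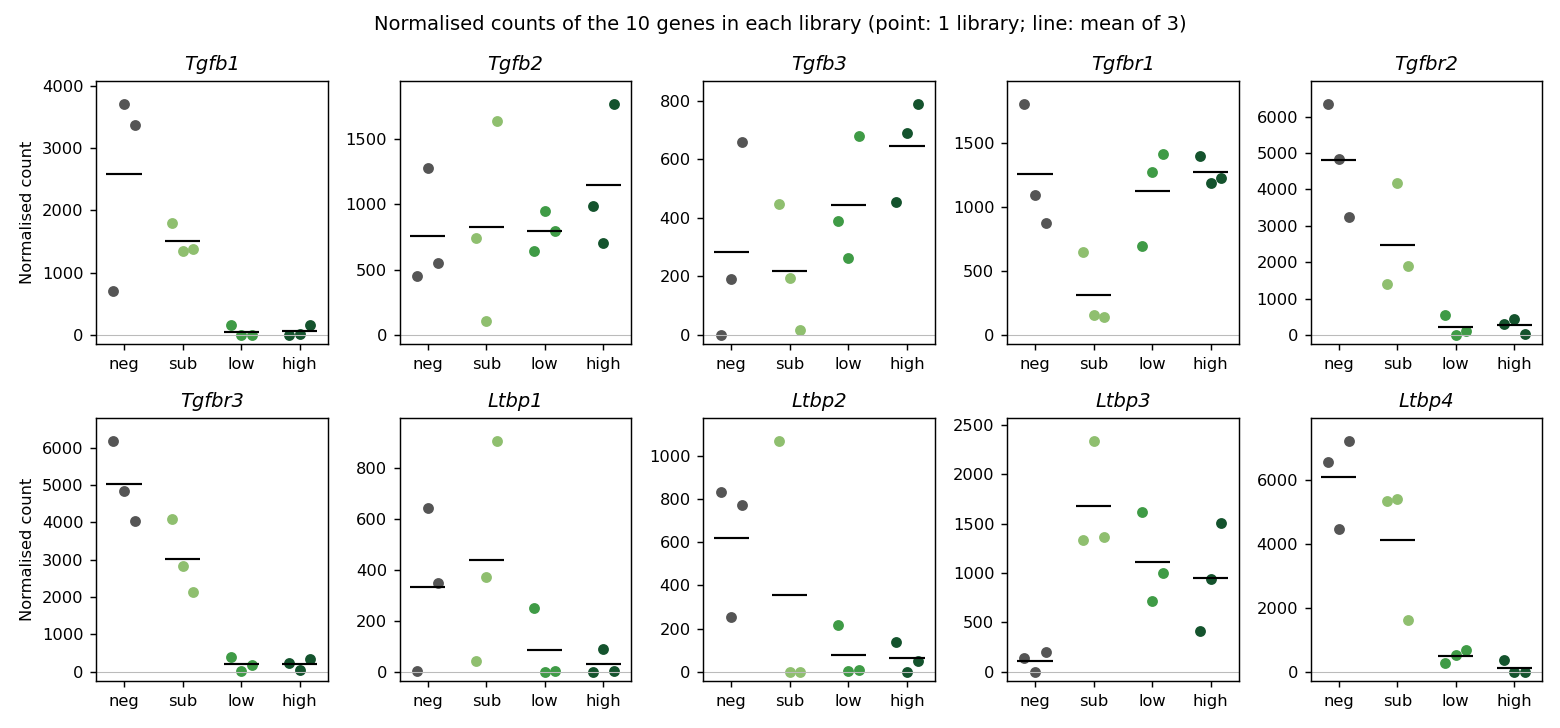
Normalised counts of the 10 genes in every library (y axis, linear, a scale of its own for each gene) by population (x axis: neg, sub, low, high). Each point is 1 library and each line the mean of 3. Tgfb1, Tgfbr2, Tgfbr3 and Ltbp4 have all 3 neg libraries above all 6 libraries of low and high, Ltbp3 has all 3 neg libraries below them, and Tgfb2 overlaps between all populations.

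Comparisons are given as normalised counts per library, then as a log2 difference of log2(normalised count + 1) with its standard error, tested with limma over all 16128 genes and called at an adjusted p of 0.05. In bulk samples such as these, fewer cells of a type and less RNA per cell cannot be told apart. Against neg, 3 of the 10 genes were lower in low, where limma called 4.69% of all genes and 2.15% as lower. Against neg, 2 of 10 were lower in high, where 4.69% of all genes were called and 2.25% as lower. Against sub, 1 of 10 was lower in high, where 0.986% of all genes were called and 0.868% as lower. No gene of the set was called in sub against neg, where the background was 1.19%, nor in low against sub, where it was 0.744%. None was called in high against low either, where limma called 0% of all genes. There 684 genes, or 4.24%, had an unadjusted limma p under 0.05, no more than that threshold would pass with no difference. The count tests edgeR and DESeq2 called 34 and 646 genes in high against low. No gene of the set was called higher in any comparison, where the share of all genes called higher ran from 0% in high against low to 2.55% in low against neg, with 1.04% in sub against neg, 0.13% in low against sub, 2.44% in high against neg and 0.118% in high against sub. The shares called lower were 0.614% in low against sub and 0.149% in sub against neg. The moderated F test over the 4 populations called 4 of the 10 genes, Tgfb1, Tgfbr2, Tgfbr3 and Ltbp4 (limma adjusted p = 0.0378, 0.0484, 0.00451 and 0.00336), and 4.23% of all genes. The F test calls of Tgfb1 and Tgfbr2 were lost with no filter (limma, 0.0825 and 0.166) and without any single neg or sub library. That of Tgfb1 was also lost without low 2, low 3 or high 2 and with edgeR (0.0655), DESeq2 (0.147) and the replicate number as a block (limma, 0.0539), that of Tgfbr2 without low 3 or any single high library, and that of Ltbp4 with DESeq2 (0.0744).

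The median log2 difference over the 10 genes was -3.52 in low against neg and -4.36 in high against neg, where the medians over all genes tested were 0 and 0.13. In high against sub it was -2.30, with 0.20 over all genes. The medians were closer to 0 elsewhere, at -0.60 in sub against neg, -1.80 in low against sub and 0.31 in high against low, where the all-gene medians were 0. Low against neg and high against neg share the 3 neg libraries. Separation without overlap was more frequent than calls. In both low and high, 5 genes of the set lay wholly under neg and 1 wholly above it, where 8.52% and 8.38% of all genes did so in low and 8.61% and 10.2% in high. Against sub, 4 genes lay wholly under it in low and in high (5.99% and 5.91% of all genes), with 1 wholly above in low (5.75%) and 2 in high (7.2%). In sub against neg 1 gene lay above (4.69%) and 1 below (4.99%), and in high against low none lay above (4.06%) or below (3.28%).

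**Figure D2:**
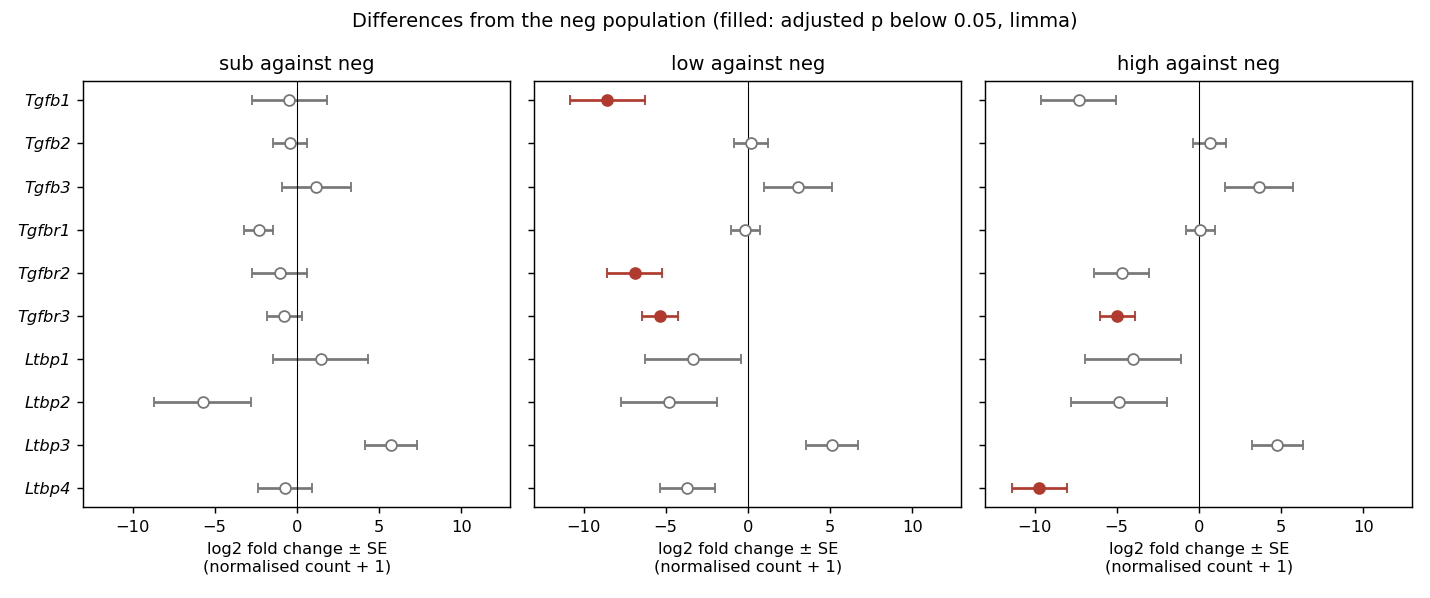
Log2 difference from neg (x axis, on the log2(normalised count + 1) scale, with 1 standard error) of each of the 10 genes (y axis) in sub, low and high. All 3 comparisons share the neg libraries. Tgfb1, Tgfbr2, Tgfbr3 and Ltbp4 lie left of 0 in low and high, Ltbp3 lies right of 0 in all 3 populations, and filled points mark the calls.

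Tgfb1 encodes the ligand most studied in fibrosis. The gene (ENSMUSG00000002603.15) lies on the plus strand of mouse chromosome 7, chr7:25687002-25705077 in GRCm38. Its promoter is shown because Tgfb1 was the only ligand whose level passed the test between populations. It spans 250 bases before to 50 bases after the start, chr7:25686752-25687051 on the plus strand, from RefSeq on GRCm38.p6, and capitals mark the GC box GGGCGG on either strand.
Tgfb1 promoter: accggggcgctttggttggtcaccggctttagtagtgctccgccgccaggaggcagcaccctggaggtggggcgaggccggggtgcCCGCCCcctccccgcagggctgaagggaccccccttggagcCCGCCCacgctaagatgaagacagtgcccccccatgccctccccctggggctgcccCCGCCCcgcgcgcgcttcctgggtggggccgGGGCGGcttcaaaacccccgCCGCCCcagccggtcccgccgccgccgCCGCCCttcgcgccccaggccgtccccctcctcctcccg
The window holds 6 GC boxes and 30 CpG dinucleotides. Of 32851 mouse promoters of the same length, 35.7% hold at least 1 GC box, and the median promoter holds 7 CpG dinucleotides.

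In neg, Tgfb1 had 704, 3707 and 3365 normalised counts. In sub it had 1797, 1342 and 1374. In low it had 160, 0 and 0, and in high it had 0, 12.1 and 163. All 6 libraries of low and high lay under all 6 of neg and sub, and neg overlapped sub. The level in low was lower than in neg by a log2 difference of -8.57 ± 2.28 (limma, adjusted p = 0.0351), and the means differed 48.7-fold. Low 1 was the only low library above 0, so the fold rests on it, and without low 2 or low 3 the fold was 32.5 and the log2 difference -7.35. In high against neg the difference was -7.32 ± 2.28 (limma, adjusted p = 0.0762) and did not pass the test. DESeq2 (0.0333) and limma with a pseudocount of 5 (0.0262) called it. In low against sub the difference was -8.10 ± 2.28 (limma, adjusted p = 0.123), or 0.0436 without low 1. The order of the means was neg, sub, high, low, with the libraries of high and low overlapping. The call in low against neg was lost with edgeR (adjusted p = 0.0972), with no filter on low values (limma, 0.0633), in a fit of only those 2 populations (limma, 0.110), and without any single neg library, any single sub library, low 2 or low 3 (limma, 0.0510 to 0.126). The endothelial and stellate marker sums given above were lower in the same 6 libraries, and their part in this result was not tested.

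Tgfb2 encodes the ligand that depends most on betaglycan, and Tgfb3 the third isoform, both products of separate genes (chr1:186622792-186705989 and chr12:86056745-86079041, minus strand). Tgfb2 had 448, 1277 and 554 normalised counts in neg, 739, 105 and 1640 in sub, 644, 949 and 796 in low and 988, 700 and 1767 in high. The 4 populations overlapped, and the highest mean was 1.52 times the lowest (F test, limma adjusted p = 0.859). Tgfb3 had 0, 190 and 658 in neg, 446, 195 and 16.0 in sub, 390, 264 and 678 in low and 455, 689 and 788 in high. All 3 high libraries of Tgfb3 lay above all 3 sub libraries, as did those of 7.2% of all genes, and the F test did not call the gene (limma adjusted p = 0.705). Tgfb2 shares 124 exonic bases with Gm29491 on the opposite strand, and Tgfb3 shares 163 with Gm37804 and 257 with Gm48008. The counting tool's use of strand is not given in the sources used here, so reads from these stretches cannot be told apart, although all 3 partner genes were listed at 0 in every library.

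Compared per kb of the longest annotated transcript, Tgfb1 made up 75.8% to 82.5% of the summed ligand level in neg and 62.2% to 87.0% in sub. It made up 0% to 20.5% in low and 0% to 9.89% in high. Tgfb2 and Tgfb3 together held the rest, so the ligand transcripts of low and high were mainly Tgfb2 (41.5% to 70.4% and 39.6% to 58.9%) and Tgfb3 (29.6% to 56.3% and 36.3% to 59.0%). The shares carry no test.

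Tgfbr2 encodes the type II receptor, the subunit that first binds ligand. It lies on the minus strand at chr9:116084293-116175360. Its promoter, chr9:116175314-116175613 on the minus strand, is shown beside that of Tgfb1 because both genes were lower in low than in neg.
Tgfbr2 promoter: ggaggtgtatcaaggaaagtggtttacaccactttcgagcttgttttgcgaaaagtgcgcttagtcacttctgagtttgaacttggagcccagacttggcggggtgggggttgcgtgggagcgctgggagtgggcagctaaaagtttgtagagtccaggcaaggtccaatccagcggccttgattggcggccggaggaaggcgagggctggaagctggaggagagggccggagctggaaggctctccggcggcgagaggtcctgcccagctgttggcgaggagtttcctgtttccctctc
It holds 15 CpG dinucleotides and no GC box. It also held none of the other motifs searched on either strand, which were the AP-1 letters TGANTCA (found in 7.81% of mouse promoters of this length), the ETS letters CCGGAA (14.9%), the letters TATAAA of the TATA box (13.6%) and the SMAD palindrome GTCTAGAC (0.213%), so it has no capitals. A missing match says only that these letters are not in this window.

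In neg, Tgfbr2 had 6341, 4832 and 3236 normalised counts. In sub it had 1402, 4162 and 1891. In low it had 546, 0 and 106, and in high it had 307, 441 and 40.02. Every library of low and high lay under every library of neg and sub, and neg overlapped sub. Tgfbr2 was lower in low than in neg by a log2 difference of -6.90 ± 1.69 (limma, adjusted p = 0.0217). In high against neg the difference was -4.71 ± 1.69 (limma, adjusted p = 0.133), which did not pass, although edgeR (0.0336) and DESeq2 (0.0136) called it. So did limma without low 2 (0.0119), with a pseudocount of 5 (0.0393) and in a fit of only those 2 populations (0.04). The call in low against neg was lost with no filter (limma, 0.0705), in a fit of only those 2 populations (limma, 0.154) and without any single neg library or low 2 (limma, 0.0521 to 0.0873). Without low 2, the library at 0, the difference was -4.26 in place of -6.90, and the ratio of the means was 22.1-fold with all libraries, 14.7-fold without low 2 and 90.6-fold without low 1. The endothelial and stellate marker sums were also lower in low and high than in neg and sub, while the stellate sum was higher in sub than in neg. Their part was not tested.

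Tgfbr3 encodes betaglycan, the co-receptor that lacks a kinase. It lies on the minus strand at chr5:107106570-107289629, and no promoter is printed for it. Tgfbr3 had 6184, 4831 and 4046 normalised counts in neg and 4092, 2822 and 2144 in sub. It had 399, 23.8 and 177 in low and 243, 48.5 and 329 in high. No library was at 0, and all of low and high lay under all of neg and sub. Tgfbr3 was lower than in neg by a log2 difference of -5.36 ± 1.08 in low (limma, adjusted p = 0.00614) and of -4.96 ± 1.08 in high (limma, adjusted p = 0.0101). The means differed 25.1-fold and 24.3-fold, and the first was 50.1-fold without low 1. The difference of low from sub was -4.59 ± 1.08 (limma, adjusted p = 0.0543), just outside the threshold, and edgeR called it (0.0142), as did limma without low 1 (0.0397) or high 2 (0.0403). In high against sub it was -4.20 ± 1.08 (limma, adjusted p = 0.0775), called by edgeR (0.0118) and by limma without low 2 (0.0238). DESeq2 called both differences from sub (0.000246 in low and 0.00031 in high), as did limma with a pseudocount of 5 (0.0281 and 0.0419). The call in low against neg held in all 19 alternative fits, with a highest adjusted p of 0.0482, and the call in high against neg was lost only without high 2 (limma, 0.0528). The means of neg and sub stood at 5020 ± 1081 and 3019 ± 989 (SD, n = 3 each), and their libraries overlapped. Tgfbr3 shares 297 exonic bases with Gm43422 on the same strand. Gm43422 was at a mean of 325 ± 285 normalised counts in neg (SD, n = 3) and at 0 in all other libraries, and how the counting divided shared reads is not given in the sources used here. The endothelial and stellate marker sums were lower in low and high than in neg and sub, and their part was not tested.

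Tgfbr1, the type I receptor kinase (plus strand, chr4:47353222-47414931), had a profile of its own among the receptors. It had 1802, 1090 and 876 normalised counts in neg and 646, 155 and 138 in sub. It had 695, 1269 and 1411 in low and 1394, 1190 and 1223 in high. All 3 sub libraries lay below all other 9 libraries, and neg, low and high overlapped. The log2 difference of sub from neg was -2.32 ± 0.89 (limma, adjusted p = 0.358), that of low from sub 2.16 ± 0.89 (limma, adjusted p = 0.388) and that of high from sub 2.40 ± 0.89 (limma, adjusted p = 0.308). None passed the test, nor did the F test (limma adjusted p = 0.310). Non-overlap in the same direction was found for 4.99% of all genes in sub against neg, 5.75% in low against sub and 7.2% in high against sub.

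Per kb, Tgfbr1 made up 11.98% to 14.8% of the summed receptor level in neg and 2.67% to 11.7% in sub. It made up 47.6% to 98.3% in low and 75.7% to 78.3% in high. The ratio of Tgfbr2 to Tgfbr1 per kb was 2.50 to 3.15 in neg and 1.54 to 19.2 in sub, and 0 to 0.559 in low and 0.0233 to 0.263 in high. Type II transcripts outnumbered type I transcripts in all 6 libraries of neg and sub and in none of the other 6, as a description without a test.

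**Figure D3:**
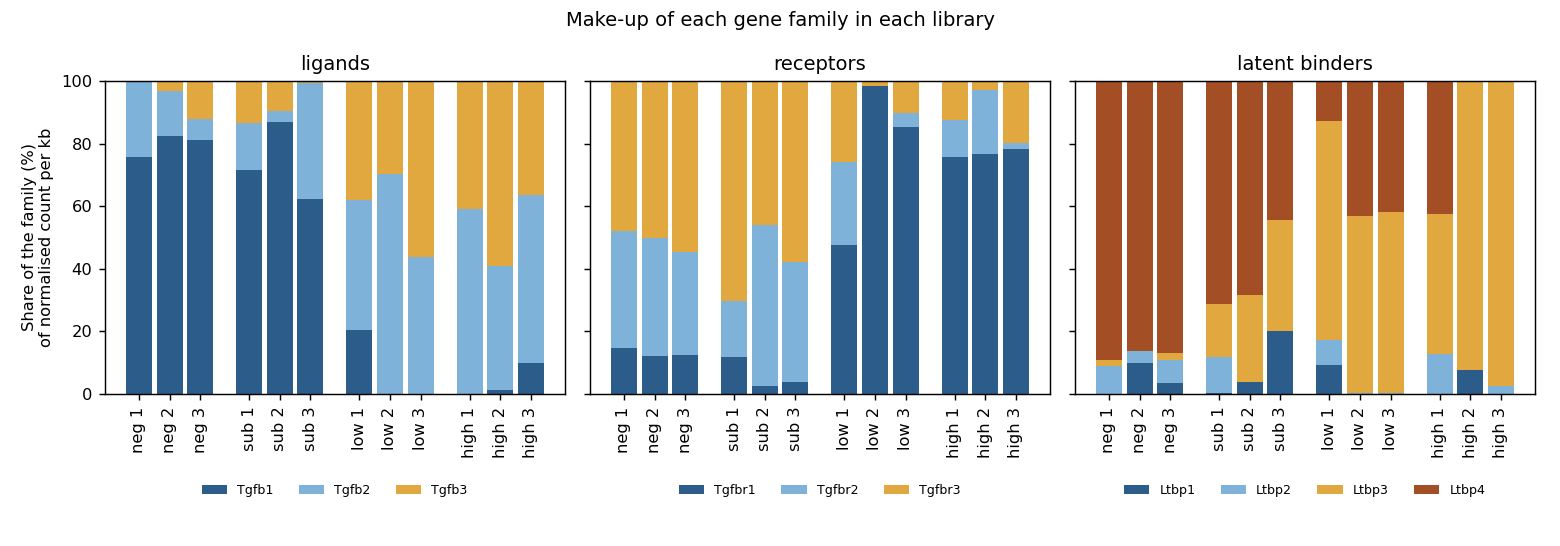
Share of each gene in the summed level of its own group (y axis, percent of normalised counts per kb of the longest transcript) in each of the 12 libraries (x axis), for ligands, receptors and latent binders. Tgfb1 holds 62.2% or more of the ligand level in every neg and sub library and 20.5% or less in every low and high library, and Tgfbr1 holds 14.8% or less of the receptor level in neg and sub and 47.6% or more in low and high.

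Ltbp4 encodes a binding protein that carries latent TGF-beta1 and has a further role in elastic fibre assembly. The gene (minus strand, chr7:27305136-27337692) has annotated starts at both an upstream and a downstream promoter, and both are shown because the table gives 1 value per gene and cannot say which was used. The upstream window is chr7:27337563-27337862 and the downstream one chr7:27333614-27333913, both on the minus strand, with GC boxes in capitals.
Ltbp4 upstream promoter: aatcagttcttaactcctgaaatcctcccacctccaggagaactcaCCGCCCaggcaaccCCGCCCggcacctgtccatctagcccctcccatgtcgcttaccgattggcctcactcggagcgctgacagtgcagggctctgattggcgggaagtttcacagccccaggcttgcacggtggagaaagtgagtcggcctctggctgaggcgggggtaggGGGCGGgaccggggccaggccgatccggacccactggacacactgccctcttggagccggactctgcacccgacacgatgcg
Ltbp4 downstream promoter: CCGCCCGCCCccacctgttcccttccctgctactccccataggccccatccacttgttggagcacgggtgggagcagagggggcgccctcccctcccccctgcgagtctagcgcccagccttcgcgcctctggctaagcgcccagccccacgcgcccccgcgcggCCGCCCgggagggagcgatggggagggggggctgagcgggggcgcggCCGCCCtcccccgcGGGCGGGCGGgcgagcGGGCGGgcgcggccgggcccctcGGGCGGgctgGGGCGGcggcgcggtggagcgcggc
The upstream window holds 3 GC boxes and 19 CpG dinucleotides, and the downstream window shown 9 GC boxes and 39 CpG dinucleotides. Another annotated downstream start gives the window chr7:27333599-27333898, which is not shown and holds 7 GC boxes and 39 CpG dinucleotides.

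Ltbp4 had 6565, 4476 and 7236 normalised counts in neg and 5342, 5414 and 1619 in sub. It had 275, 517 and 681 in low and 365, 0 and 0 in high. All 6 libraries of low and high lay below all of neg and sub, while low and high overlapped through high 1. Ltbp4 was lower in high than in neg by a log2 difference of -9.70 ± 1.67 (limma, adjusted p = 0.0013) and lower than in sub by -8.98 ± 1.67 (limma, adjusted p = 0.0114). The means differed 50.1-fold and 33.9-fold. High 1 was the only high library above 0, so both folds rest on it, and without high 2 or high 3 they were 33.4 and 22.6, with log2 differences of -8.29 and -7.56. In low against neg the difference was -3.70 ± 1.67 (limma, adjusted p = 0.278) and did not pass, except in a fit of only those 2 populations (limma, 0.02). In high against low it was -6.01 ± 1.67 (limma, adjusted p = 0.767), and without high 1 it passed (limma, 0.0155). The call in high against neg was lost only in a fit of those 2 populations (limma, 0.0595). The call in high against sub was lost in the fit of those 2 populations (limma, 0.174) and without sub 1, sub 2, high 2 or high 3 (limma, 0.0599 to 0.0947). Endothelial and stellate marker sums were again lower in low and high, and their part was not tested.

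Ltbp3, which also binds latent TGF-beta and is known from tooth and bone, lies on the plus strand at chr19:5740904-5758532. Its promoter, chr19:5740650-5740949 on the plus strand, is shown because Ltbp3 was the only gene of the set with every neg library below every library of the other populations. Capitals mark a match to the AP-1 letters.
Ltbp3 promoter: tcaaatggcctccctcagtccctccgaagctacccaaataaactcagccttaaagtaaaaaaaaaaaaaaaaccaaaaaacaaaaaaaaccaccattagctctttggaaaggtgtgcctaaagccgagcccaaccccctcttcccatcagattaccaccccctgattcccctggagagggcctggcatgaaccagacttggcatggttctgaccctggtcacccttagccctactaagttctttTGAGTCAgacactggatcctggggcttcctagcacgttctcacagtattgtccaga
The AP-1 match begins 6 bases before the start and ends on the start itself. It is the only match in the window to any motif searched. The window holds 3 CpG dinucleotides and no GC box.

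Ltbp3 had 135, 0 and 204 normalised counts in neg and 1336, 2341 and 1369 in sub. It had 1622, 718 and 999 in low and 408, 943 and 1510 in high. The 9 libraries with EGFP signal all lay above the 3 of neg, and sub, low and high overlapped. The biliary and hepatocyte marker sums were higher in the same 9 libraries than in neg, and their part was not tested. The log2 difference from neg was 5.74 ± 1.57 in sub (limma, adjusted p = 0.0972), 5.12 ± 1.57 in low (limma, adjusted p = 0.0726) and 4.78 ± 1.57 in high (limma, adjusted p = 0.0957). None passed the test, while DESeq2 called Ltbp3 in sub (adjusted p = 0.0119) and in low (adjusted p = 0.0369). Limma with a pseudocount of 5 also called it in sub (adjusted p = 0.043) and in low (adjusted p = 0.0403). Leaving out neg 3 brought all 3 differences past the threshold in limma (0.0363 to 0.0474). Non-overlap above neg was found for 4.69% of all genes in sub, 8.38% in low and 10.2% in high.

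Ltbp1, a matrix tether of the latent complex (plus strand, chr17:75005568-75392512), had 2.07, 642 and 350 normalised counts in neg and 40.5, 371 and 907 in sub. It had 252, 0 and 1.64 in low and 0, 88.9 and 0.817 in high. Ltbp2, which is not known to bind latent TGF-beta (minus strand, chr12:84783212-84876532), had 833, 254 and 776 in neg and 1072, 0 and 0 in sub. It had 219, 4.25 and 5.75 in low and 138, 0 and 48.2 in high. Ltbp2 was higher in all 3 neg libraries than in all 6 of low and high, as 8.52% of all genes were against low and 8.61% against high. Ltbp1 overlapped between populations. Neither passed the F test (limma adjusted p = 0.625 for Ltbp1 and 0.639 for Ltbp2). Ltbp2 shares 764 exonic bases with D030025P21Rik on the opposite strand, a gene listed at 0 in every library.

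Per kb, Ltbp4 made up 86.1% to 89.2% of the summed binder level in neg, 44.5% to 71.4% in sub, 12.6% to 43.3% in low and 0% to 42.5% in high. Ltbp3 made up 0% to 2.30% in neg and 16.8% to 35.4% in sub, and 56.4% to 70.0% in low and 44.7% to 97.3% in high. Ltbp3 was the larger share in all 6 libraries of low and high, and Ltbp4 in all 6 of neg and sub.

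The other genes of the pathway were read from 4 lists. Signal transducers and their regulators, 12 genes with the SMADs among them, included 1 gene that passed. Tgif1, a homeodomain repressor that binds SMADs, was higher in low and in high than in neg, as were 2.55% and 2.44% of all genes, and the other 11 did not pass in any comparison. Tgif1 had 111, 0 and 65.7 normalised counts in neg, 2707, 2224 and 4696 in low and 3709, 2332 and 3413 in high. It was 7.29 ± 1.48 higher than neg on the log2 scale in low (limma, adjusted p = 0.00619) and 7.31 ± 1.48 higher in high (limma, adjusted p = 0.0058). The median of this list was 0.54 in low against neg and 0.76 in high against neg, where all genes had 0 and 0.13. The biliary and hepatocyte marker sums were also higher in low and high than in neg, and their part was not tested. Both calls of Tgif1 were lost in fits of only the 2 populations compared.

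Of the 6 co-receptors and extracellular modulators, Eng, Dcn and Bgn were lower in low than in neg, as were 2.15% of all genes. Eng and Dcn were lower in high than in neg (2.25% of all genes) and than in sub (0.868%), and Dcn was also lower in low than in sub (0.614%). The endothelial marker sum was 140163 to 198007 in neg and 971 to 2617 in low, the stellate sum 8529 to 14667 and 825 to 2177, and their part in these differences was not tested. Eng, or endoglin, an endothelial co-receptor, had 9523, 11277 and 8311 normalised counts in neg and 0 in all 3 high libraries, at least 3604-fold lower against a floor of 3 reads per library (limma, adjusted p = 0.000194). Dcn and Bgn encode small matrix proteoglycans that bind TGF-beta. Dcn had 3163, 4752 and 9069 in neg and 82.4, 0 and 0 in low, a log2 difference of -10.20 ± 2.17 (limma, adjusted p = 0.00853). Bgn had 5897, 4696 and 6170 in neg and 518, 402 and 0.822 in low, a log2 difference of -6.26 ± 1.49 (limma, adjusted p = 0.0185). With 1 library left out, the list's 3 calls in low against neg numbered 1 without neg 3, its 2 in high against neg numbered 1 without neg 2, neg 3, high 2 or high 3, and its 1 call in low against sub was gone without any 1 neg or sub library, low 2 or low 3, and numbered 2 without low 1. Its 2 calls in high against sub numbered 1 without any 1 neg or sub library, high 2 or high 3.

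Of the 15 genes of latent complex processing and activation, 8 passed in at least 1 comparison, some higher and some lower. Against neg, 3 were higher in sub (Itgb8, Thbs1 and Fn1), as were 1.04% of all genes, and none lower. In low 4 were higher (Itgav, Itgb8, Thbs1 and Fn1) and 3 lower (Nrros, Fbn1 and Emilin1), against 2.55% and 2.15% of all genes. In high 2 were higher (Itgb8 and Fn1) and 4 lower (Lrrc32, Nrros, Fbn1 and Emilin1), against 2.44% and 2.25% of all genes. Fbn1 was lower in low than in sub, and Fbn1 and Emilin1 were lower in high than in sub, where 0.614% and 0.868% of all genes were. Relative to neg, the endothelial and stellate marker sums were lower in low and high, and the biliary and hepatocyte sums were higher in sub, low and high, and their part in these calls was not tested. Itgb8 encodes the beta subunit of an integrin that activates latent TGF-beta. It had 0, 1.22 and 0 normalised counts in neg, 248, 71.0 and 670 in sub, 1953, 1904 and 749 in low and 2143, 2028 and 2139 in high. Against a floor of 3 reads per neg library it was at least 115-fold higher in sub (limma, adjusted p = 0.0216), 533-fold in low (0.000611) and 731-fold in high (0.000313). The bound in sub comes from the mean of its libraries and rests most on sub 3, at 670, where sub 2 had 71.0. Fn1, fibronectin, to which latent complexes are anchored, had 3931, 3754 and 1871 in neg and 12638, 10695 and 14597 in sub. It was 2.05 ± 0.25 higher in sub on the log2 scale (limma, adjusted p = 6.25e-05), 2.20 ± 0.25 in low (limma, adjusted p = 1.32e-05) and 2.70 ± 0.25 in high (limma, adjusted p = 8.35e-07). Fbn1, fibrillin-1, the microfibril protein that latent binders attach to, had 2161, 5316 and 3233 in sub and 0, 0.85 and 0 in low, at least 1479-fold lower (limma, adjusted p = 0.0114). The 3 calls of this list in sub against neg numbered 1 without sub 1, sub 3, high 1 or high 2. Its 1 call in low against sub was gone without sub 2, and its 2 in high against sub numbered 0 without sub 2 and 1 without any 1 neg or high library, sub 1 or sub 3.

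Of the 12 TGF-beta response genes, Tgfbi, Col1a1, Col1a2 and Col3a1 were lower in low than in sub and than in neg, as were 0.614% and 2.15% of all genes. Those 4 and Acta2 were lower in high than in neg (2.25% of all genes), and Tgfbi, Col1a1 and Col3a1 were lower in high than in sub (0.868%). None was called higher, and the other 7 were not called. Col3a1 and Col1a1 encode fibrillar collagens. Col3a1 had 6214, 5475 and 8708 normalised counts in neg, 6526, 4121 and 6977 in sub, 485, 0 and 1.64 in low and 0 in all 3 high libraries. It was at least 2525-fold lower in high than in neg (limma, adjusted p = 0.000713). Col1a1 was lower in low than in neg by a log2 difference of -9.57 ± 2.14 (limma, adjusted p = 0.01201). Col1a2 had 4467, 5204 and 6864 in neg and 190, 229 and 62.5 in low, a log2 difference of -5.27 ± 0.84 (limma, adjusted p = 0.000611). The list's median was -4.97 in low against neg, where that of all genes was 0. The same genes are expressed by stellate and other mesenchymal cells. The stellate marker sum was likewise lower in low and high, and the part of these cells was not tested. No gene of the 4 lists passed in high against low with limma, where edgeR called 1 co-receptor or modulator and 1 response gene. With 1 library left out, the 4 calls in low against sub numbered 0 without any 1 sub library and 1 without any 1 neg library, low 2 or low 3, and the 4 in low against neg numbered 1 without neg 3. The 5 calls in high against neg numbered 3 without neg 3 or high 1, and the 3 in high against sub numbered 1 without neg 1, neg 3, any 1 sub library, high 2 or high 3, and 5 without low 2.

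**Figure D4:**
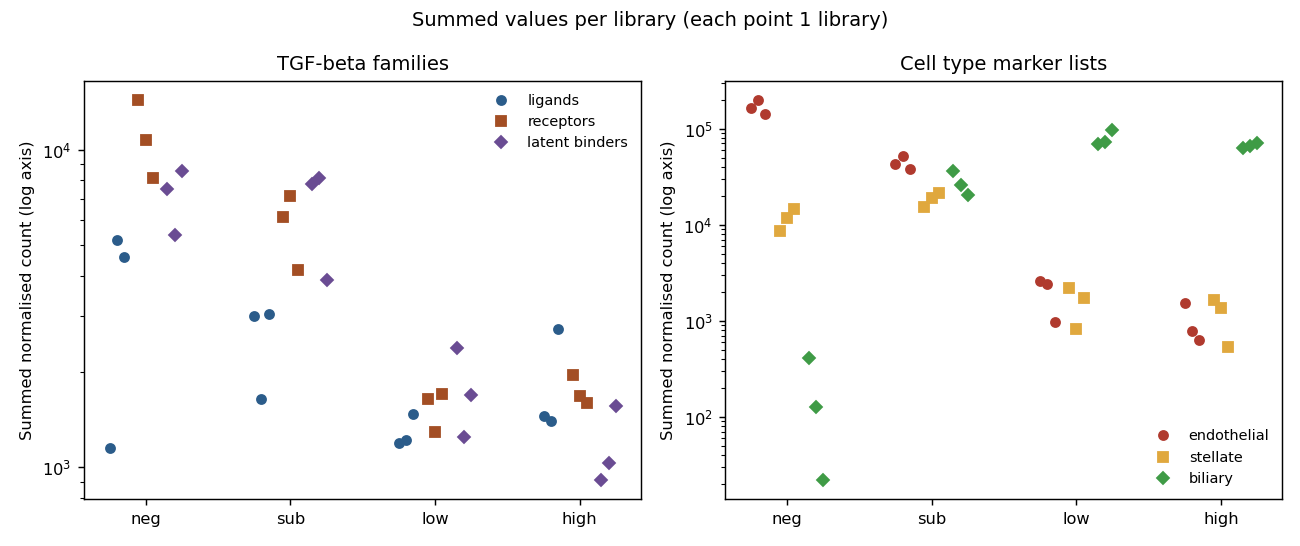
Summed normalised counts (y axis, log scale) in each library (point), by population (x axis), of the ligands, receptors and latent binders and of the endothelial, stellate and biliary marker lists. The receptor sum is 4172 to 14327 in neg and sub and 1292 to 1944 in low and high, the endothelial and stellate sums are lower in low and high than in neg and sub, and the biliary sum is lowest in neg.

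The 4 genes called by the F test were matched to the genes with the most similar profile, measured as the root mean square difference of gene-centred log2(normalised count + 1) over the 12 libraries among 9613 genes with a mean of at least 100. Nearest to Tgfb1 were Aqp1 (1.11), Fmnl3 (1.28) and Ankrd33b (1.74), where the median over all candidates was 5.36. Nearest to Tgfbr2 were Ppp1r12c (0.836), Zeb2 (1.08) and Flt4 (1.18), with a median of 4.37. Nearest to Tgfbr3 were Msn (0.663), Nrp2 (1.06) and Heg1 (1.07), with a median of 3.96. Nearest to Ltbp4 were Gm12840 (1.45), Adgrf5 (1.53) and Pgm5 (1.59), with a median of 5.24. These distances describe likeness over 12 libraries that share their populations, and carry no test.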

How the data were processed

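Liver cells of Sox9EGFP mice were profiled as 12 total RNA libraries, 3 in each of 4 EGFP populations, with groups and replicate numbers taken from the sample titles. The values analysed are a signal deposited by the authors: normalised counts, 1 column per library. Per the submitters' processing notes, Salmon, DESeq2 1.26.0 and mm10 were used; the annotation and the use of strand are not given in the sources used here. In each column 100% of the values were whole multiples (tolerance 0.01 reads) of the smallest one, so each was divided by that value and the whole numbers were treated as reads. In sub 3 and high 2 that value was 0.997 and 1.01, close to 1, which makes the recovery less certain there; Salmon gives estimated counts, so these numbers may be rounded estimates.

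Genes with a mean of at least 10 normalised counts (16128 of 54227, with 99.9% of the summed values; 33571 were at 0 throughout) were transformed to log2(value + 1) and fitted with limma 3.58.1 (lmFit, eBayes with a variance trend, R 4.3.3), all 12 libraries, population as the only term. The 6 pairwise contrasts and an F test were two-sided, with Benjamini-Hochberg adjustment over all genes at 0.05. Differences on the log2(value + 1) scale understate changes between low values, and where a population holds libraries at 0 they can differ widely from the ratio of the means, which is given as a fold. Every adjusted p is limma's unless edgeR 4.0.16 (quasi-likelihood) or DESeq2 1.42.0, both on recovered reads, is named. Folds against a population with at most 3 reads per library are bounds from 3 reads and cover counting error only. Alternatives were a pseudocount of 5, no filter, rescaling to equal totals, a replicate block, fits of only the 2 populations compared, both count tests, and each library left out in turn.

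Every gene of the set was reported. Other pathway genes were named where called. Their values were given for all if 4 or fewer in a list were called, and otherwise for the 3 with the smallest F test p. Similar profiles were the 3 nearest genes of each F test call. The set, the lists and the rules were chosen with earlier results of these data known. Gene positions are from GENCODE M21 (GRCm38) and promoters from RefSeq (GRCm38.p6), which matched 8 of the 10 genes. No overlapping gene was listed for Tgfb1, Tgfbr1, Tgfbr2 or Ltbp4. Overlaps of Ltbp3 with other genes are not reported here.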

Additional observations from a re-analysis of the deposited data

How the results depend on the processing

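No pairwise difference printed for Tgfb1, Tgfbr1, Tgfbr2, Tgfbr3, Ltbp3 or Ltbp4 changed sign under any alternative run. Low against neg had 3 genes of the set called, then 4 with a pseudocount of 5 and with DESeq2 (Ltbp3 gained), 2 with edgeR and in the fit of only those populations, 1 with no filter, and 1 to 3 when a library was left out. High against neg had 2, then 4 with a pseudocount of 5, 4 with DESeq2, 3 with edgeR (Tgfbr2 gained), 2 in the fit of only those populations (Ltbp4 lost, Tgfbr2 gained), and 1 to 3 when a library was left out. High against sub had 1, then 2 with a pseudocount of 5, with edgeR and with DESeq2, 0 in the fit of only those populations, and 0 to 2 when a library was left out. Sub against neg had 0, then 1 with a pseudocount of 5 and with DESeq2, and 0 to 1 with a library left out. Low against sub had 0, then 1 with a pseudocount of 5, edgeR and DESeq2, and 0 to 3 with a library left out. High against low had 0, and 0 to 1 with a library left out. The F test had 4, then 5 with a pseudocount of 5 (Ltbp3 gained), 3 with edgeR, 2 with no filter and with DESeq2, and 2 to 4 with a library left out. The cause of these shifts was not tested.

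Over all genes, limma called 192 in sub against neg, 120 in low against sub, 0 in high against low, 757 in low against neg, 757 in high against neg and 159 in high against sub. DESeq2 called 1699, 1592, 646, 2354, 2259 and 1485 in the same order. Fits of only the populations compared called 38, 39, 6, 302, 630 and 64, and leaving out a library gave 135 to 239, 10 to 126, 0 to 4, 445 to 763, 424 to 773 and 46 to 176. In high against low, edgeR called 34, and both no filter and the replicate block 1.

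Libraries with the same number share that number and a tag whose meaning is not given, and were not treated as pairs. The correlations of their deviations from the population means were -0.016 to 0.027 over 18 pairs (mean 0.0088). Over the 36 pairs with different numbers they were -0.045 to 0.023 (mean -0.0044). All were small, but 10 of 12 libraries correlated best with their own number, so the libraries may be paired. With the replicate block the calls of the set numbered 0 in sub against neg, 0 in low against sub, 0 in high against low, 3 in low against neg, 2 in high against neg and 1 in high against sub, and 3 in the F test, where Tgfb1 was lost (limma, adjusted p = 0.0539). With 3 libraries a population and 13 of 120 values at 0, smaller differences may not have been detectable.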
